A study of Mus musculus with 32 samples.

Results

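The 10 genes described here are chemokines that microglia make: Ccl2, Ccl12, Ccl5, Cxcl10, Cxcl13, Ccl3, Ccl4, Cxcl16, Ccl6 and Ccl9. They were taken by gene symbol from the 2 deposited transcript count tables, 1 for each sex, and their transcripts were summed to 1 count per gene. All 10 were listed in both tables, among 13377 genes in the female table and 11999 in the male table. RNA came from spinal cord microglia of mice, isolated by fluorescence sorting, and all libraries are labelled day 14. Every library carries the genotype label Cx3Cr1-Cre;Rosa26-iDTR, in which a Cre driven by the Cx3cr1 locus, active in microglia and in some other macrophages and monocytes, allows cells to make a diphtheria toxin receptor after tamoxifen. In mice labelled as depleted, toxin had removed the microglia and new cells had refilled the tissue (repopulated), and in mice labelled as not depleted the original cells were in place (resident). Mice of either state had a fracture or none. The female table holds 4 resident and 3 repopulated libraries without fracture and 4 of each with fracture. The male table holds 3 resident and 2 repopulated libraries without fracture, and 5 resident and 7 repopulated ones with fracture. Descriptions name the resident libraries Wt or WT, against a genotype label shared with the depleted ones, which are named Dt in females and iDTR in males. Whether resident mice received tamoxifen or toxin is not given in the sources used here, so the effect of new cells, that of the toxin and, if the descriptions are right, that of genotype cannot be told apart. The toxin receptor was not measured, so depletion has no check at the level of the transgene. Female and male libraries were also made with different kits, so that sex and kit cannot be told apart.

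Chemokines are small secreted proteins that bind receptors coupled to G proteins and direct the movement of leukocytes. They are named for the spacing of conserved cysteines, adjacent in the Ccl group and parted by another residue in the Cxcl group, and several ligands can share a receptor. In the spinal cord, microglia are a source of chemokines after injury, and chemokine signals between microglia, neurons and arriving leukocytes are known to take part in pain. Transcription of many chemokine genes is switched on through NF-kappaB and through interferon signalling by way of Stat and Irf factors.

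Promoter sequence is shown for 4 members because they mark the range of the results: Cxcl10 and Cxcl13 had the 2 largest differences between repopulated and resident male microglia without fracture, Ccl12 had the highest level per length in 7 of the 8 groups, and Ccl6 was the only member called lower. The sequences are those of RefSeq on GRCm38.p6, the 250 bases before the start site, 5′ to 3′ on the strand of the gene. They lie at chr5:92348890-92349139 on the minus strand for Cxcl10, chr5:95956689-95956938 on the plus strand for Cxcl13, chr11:82101595-82101844 on the plus strand for Ccl12 and chr11:83593088-83593337 on the minus strand for Ccl6. Capitals mark matches to any of 6 motifs searched on both strands.
Cxcl10: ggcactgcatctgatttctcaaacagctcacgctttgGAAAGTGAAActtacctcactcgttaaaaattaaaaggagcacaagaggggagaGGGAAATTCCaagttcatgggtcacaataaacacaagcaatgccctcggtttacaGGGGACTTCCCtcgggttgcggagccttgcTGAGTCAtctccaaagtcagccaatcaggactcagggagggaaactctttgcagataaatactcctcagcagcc
Cxcl13: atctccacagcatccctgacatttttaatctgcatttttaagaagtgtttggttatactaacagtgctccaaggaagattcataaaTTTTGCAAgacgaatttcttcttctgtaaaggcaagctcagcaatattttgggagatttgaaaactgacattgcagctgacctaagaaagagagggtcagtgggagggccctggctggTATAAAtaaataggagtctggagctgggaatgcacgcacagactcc
Ccl12: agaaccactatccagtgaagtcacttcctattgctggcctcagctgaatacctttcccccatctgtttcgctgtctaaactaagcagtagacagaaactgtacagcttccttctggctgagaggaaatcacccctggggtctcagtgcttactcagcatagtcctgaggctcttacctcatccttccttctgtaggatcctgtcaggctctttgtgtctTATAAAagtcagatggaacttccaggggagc
Ccl6: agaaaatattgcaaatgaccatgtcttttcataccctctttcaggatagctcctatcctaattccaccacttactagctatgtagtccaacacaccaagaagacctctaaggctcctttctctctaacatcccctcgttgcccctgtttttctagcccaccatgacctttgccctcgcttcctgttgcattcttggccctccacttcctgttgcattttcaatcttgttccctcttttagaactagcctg

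The TATA box was searched as TATAAA. AP-1 was searched as TGANTCA, which reads nearly alike on both strands. The letters for PU.1 were GAGGAAGT. Those for C/EBP were TTGCNNAA, and the core of the interferon-stimulated response element and the kappaB consensus were searched too. The Cxcl10 window held the interferon element core at positions -213 to -204 from the start site, a motif found in 3.44% of the 32851 RefSeq windows of the same length (250 bases before and 50 after the start site). It also held kappaB matches at -159 to -150 and, as a pair of overlapping matches, at -104 to -95 and -103 to -94, with AP-1 at -74 to -68. The kappaB consensus was found in 8.46% of all windows and AP-1 in 7.81%. Cxcl13 had a TATA box and a C/EBP match, Ccl12 had a TATA box, and the Ccl6 window had none of the 6 motifs. A TATA box was found in 13.6% of all windows, C/EBP in 10.8% and PU.1 in 3.2%. The windows of Ccl9 and Ccl3 were also in the table: Ccl9 matched TATA box, AP-1 and kappaB, and Ccl3 matched none. A match describes the letters and not a bound factor. Windows for Ccl2, Ccl4, Ccl5 and Cxcl16 were not used here. On GRCm38, Ccl3, Ccl4, Ccl5, Ccl6 and Ccl9 lie within chr11:83525778-83664683, and Ccl2 and Ccl12 lie apart from them within chr11:82035571-82103400.

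Library totals ran from 16438827 to 18654165 estimated counts in females and from 5722993 to 33697535 in males. The 10 chemokines together took 0.0978% to 0.224% of the female counts, 0.0786% to 0.102% of the male resident counts and 0.121% to 0.28% of the male repopulated counts. All 12 microglial markers were listed in both tables, at a summed 46870 to 69220 CPM (counts scaled to the size of each library). No label says whether replicates are separate animals, and the p-values below cover only how much these samples vary, which may be technical. The titles of male libraries carry V numbers, and these are unevenly spread: all libraries without fracture have V numbers under 80, while 2 resident and 4 repopulated fracture libraries have higher ones. What the V number stands for is not given in the sources used here. In the male repopulated group with fracture, replicates 6 and 7 stood above the other 5 libraries for 6 of the 10 members, and results that rest on this group are also given without them. The share of all genes split in this way was not counted, so the split may not be particular to the members. Replicates 6 and 7 were picked by these levels, so values without them are a description. In sorted bulk cells, fewer cells of a kind and less RNA per cell cannot be told apart.

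Repopulated microglia of the male table had more of most of these chemokines than resident microglia, and less Ccl6. Without fracture, 8 of the 10 members were called higher (edgeR quasi-likelihood test, Benjamini-Hochberg adjusted p below 0.05 over all genes), Ccl6 was called lower, and Ccl9 was not called. Over all genes of that comparison 7.42% were called, 4.7% higher and 2.72% lower. With fracture, 7 members were called higher, Ccl6 was called lower, and Ccl4 and Ccl9 were not called, where 4.91% of all genes were called, 3.03% higher and 1.88% lower. Without repopulated replicates 6 and 7 the same 8 members were called by edgeR with fracture: the log2 difference was 1.86 for Ccl2 (adjusted p = 0.0002231), 1.42 for Ccl12 (0.003692), 0.85 for Ccl3 (0.03689), 0.79 for Cxcl16 (0.0002688) and -0.57 for Ccl6 (0.00376), and those of Ccl5, Cxcl10 and Cxcl13 stand with their values further on. In the female table only Ccl6 was called, lower in both comparisons. There 2.53% of all genes were called without fracture (1.56% higher, 0.964% lower) and 2.35% with fracture (1.27% higher, 1.08% lower). The median log2 difference of the 10 members was 2.54 without and 1.38 with fracture in males, and 0.48 and 0.73 in females, where the median over all genes lay between -0.03 and 0.00 in each. With scaling by library totals only, the share of called genes that were higher dropped from 61.8% to 33.7% (females without fracture), from 54.0% to 28.5% (females with fracture), from 63.4% to 46.9% (males without fracture) and from 61.8% to 47.3% (males with fracture), and no called member changed sign.

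**Figure D1:**
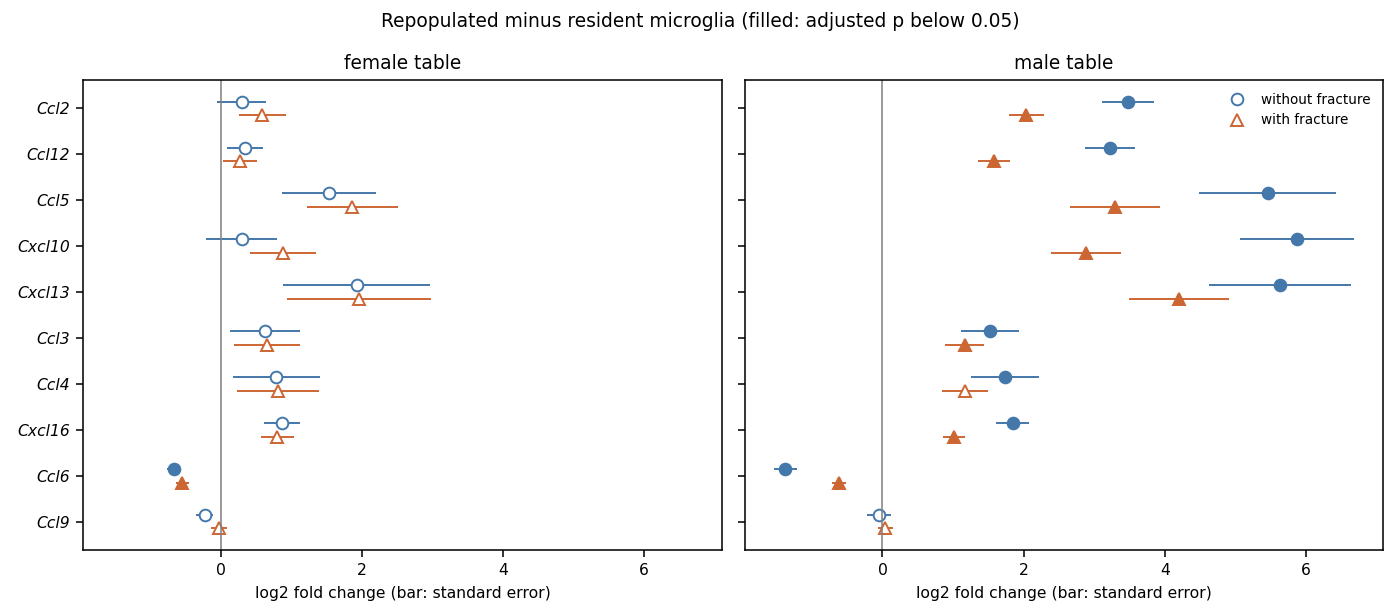
Log2 fold change of each chemokine between repopulated and resident microglia, with its standard error, in the female table (left) and the male table (right), without fracture (circles) and with fracture (triangles). Filled symbols passed the adjusted threshold: Ccl6 alone in the female table, and in the male table all but Ccl9 without fracture and all but Ccl4 and Ccl9 with fracture.

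Ccl2 and Ccl12 both signal through Ccr2, the receptor that draws inflammatory monocytes. In male resident libraries without fracture Ccl2 stood at 11.9, 11.9 and 6.2 CPM, and in the repopulated ones at 79.9 and 139 CPM. With fracture the resident values were 22.8, 11.3, 13.4, 14.1 and 18.8 CPM, and the 7 repopulated libraries ranged from 44.1 through a median of 65.2 to 92.5 CPM. The groups did not overlap in either setting. The rise was 11.1-fold without fracture (log2 3.48 ± 0.37 SE, edgeR adjusted p = 1.071e-05) and 4.11-fold with fracture (2.04 ± 0.25, adjusted p = 6.47e-05).

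Ccl12, the other Ccr2 ligand, had 102.8, 102.1 and 73.02 CPM in the male resident libraries without fracture and 617 and 1113 CPM in the repopulated ones. With fracture the resident libraries held 256, 158, 193, 182 and 193 CPM and the repopulated ones 302 to 774 CPM with a median of 678 CPM. Again no repopulated library reached down to a resident one. The rise was 9.36-fold (log2 3.23 ± 0.35, edgeR adjusted p = 5.077e-05) and 2.99-fold (1.58 ± 0.23, adjusted p = 0.0009917). Over the male libraries with V numbers under 80, the call with fracture was lost (1.24, adjusted p = 0.1452).

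In the female table the Ccr2 ligands overlapped between states without fracture. Ccl2 was at 76.8, 22.4, 48.4 and 22.3 CPM in resident and at 58.3, 37.8 and 60.3 CPM in repopulated libraries. Ccl12 was at 671, 281, 449 and 362 CPM against 552, 556 and 572 CPM. Resident replicate 1 was the highest of all 7 for both genes. The log2 differences were 0.30 ± 0.35 and 0.34 ± 0.26, and neither was called (edgeR adjusted p = 0.774 and 0.6094). With fracture Ccl2 had 24.7, 18.4, 25.5 and 25.2 CPM in resident and 36.2, 40.4, 34.0 and 30.7 CPM in repopulated libraries, which did not overlap, but the difference of 0.59 ± 0.33 was not called (adjusted p = 0.4954).

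Cxcl10 and Ccl5 draw T cells and other lymphocytes, Cxcl10 through Cxcr3, and both are known targets of interferon signalling. Cxcl10 was at its lowest in male resident libraries without fracture, at 3.35, 8.4 and 1.78 CPM, and stood at 233 and 209 CPM in the repopulated ones. With fracture it had 21.7, 13.8, 10.4, 8.9 and 9.46 CPM in resident libraries and 29.2 to 197 CPM, with a median of 64.9 CPM, in repopulated ones. Every repopulated library was above every resident one. The rise was 58.9-fold (log2 5.88 ± 0.81, edgeR adjusted p = 0.0004324) and 7.38-fold (2.88 ± 0.49, adjusted p = 0.003141).

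Ccl5 followed the same order in males. Its resident libraries without fracture held 4.66, 9.57 and 7.27 CPM and the repopulated ones 314 and 286 CPM. With fracture the values were 11.99, 10.3, 5.25, 16.6 and 11.3 CPM in resident libraries and 26.1 to 296 CPM, median 54.2 CPM, in repopulated ones. The groups were apart in both settings, but the repopulated fracture libraries were split: replicates 6 and 7 held 296 and 212 CPM and the other 5 between 26.1 and 71.9 CPM. Ccl5 rose 44.0-fold without fracture (log2 5.46 ± 0.97, edgeR adjusted p = 0.003045) and 9.85-fold with fracture (3.30 ± 0.64, adjusted p = 0.007604). Without replicates 6 and 7 the difference with fracture was 2.17 for Ccl5 (adjusted p = 0.000224) and 2.24 for Cxcl10 (adjusted p = 0.001782). Over V numbers under 80 it was 2.47 for Ccl5 (adjusted p = 0.01086) and 1.96 for Cxcl10, no longer called (adjusted p = 0.1129). Among the higher V numbers, Ccl5 stood at 16.6 and 11.3 CPM in the 2 resident libraries and at 41.1 to 296 CPM in the 4 repopulated ones.

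In female resident libraries without fracture Cxcl10 and Ccl5 were spread widely. Cxcl10 was at 307, 108.6, 124 and 79.8 CPM there and at 176, 236 and 158 CPM in repopulated libraries, so the groups overlapped. Ccl5 was at 110, 14.99, 185 and 41.0 CPM against 299, 272 and 195 CPM, with all 3 repopulated libraries above all 4 resident ones. With fracture Ccl5 also stood apart, at 19.7, 14.4, 32.9 and 49.0 CPM in resident and 92.7, 163, 87.2 and 79.2 CPM in repopulated libraries. Its log2 differences of 1.54 ± 0.67 and 1.86 ± 0.64 did not pass the threshold (edgeR adjusted p = 0.295 and 0.1828), and those of Cxcl10, 0.30 ± 0.50 and 0.88 ± 0.47, did not either (adjusted p = 0.8561 and 0.4791).

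Cxcl13, which signals through Cxcr5 and is best known for guiding B cells into follicles, had the lowest level per length of the 10 in male resident libraries. Without fracture it stood at 3.94, 2.18 and 1.46 CPM in resident and at 105 and 152 CPM in repopulated male libraries. With fracture the resident values were 2.52, 1.18, 1.71, 3.55 and 1.75 CPM, and the repopulated ones ranged from 11 through a median of 17 to 118 CPM. No repopulated library came near the resident range. The rise was 49.6-fold (log2 5.63 ± 1.01, edgeR adjusted p = 0.002824) and 18.4-fold (4.21 ± 0.71, adjusted p = 0.002921). With fracture it was 3.59 without repopulated replicate 6 (adjusted p = 0.000644), 3.06 without replicates 6 and 7 (adjusted p = 5.564e-05) and 3.55 over V numbers under 80 (adjusted p = 0.004603). Without fracture it was 6.25 when resident replicate 1 was left out (adjusted p = 0.01098).

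In females Cxcl13 had the widest range of all members in 3 of the 4 groups, the exception being repopulated libraries with fracture. The 4 resident libraries without fracture held 27.4, 0.398, 66.1 and 4.7 CPM, and the 3 repopulated ones 150, 74.3 and 57.6 CPM. With fracture, 7.54, 1.39, 10.6 and 7.9 CPM in resident libraries lay below 29.1, 40.0, 21.5 and 15.7 CPM in repopulated ones. The log2 differences of 1.93 ± 1.04 and 1.96 ± 1.02 were larger than for any other member of that table, but so was their error, and neither was called (edgeR adjusted p = 0.4275 and 0.4575).

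**Figure D2:**
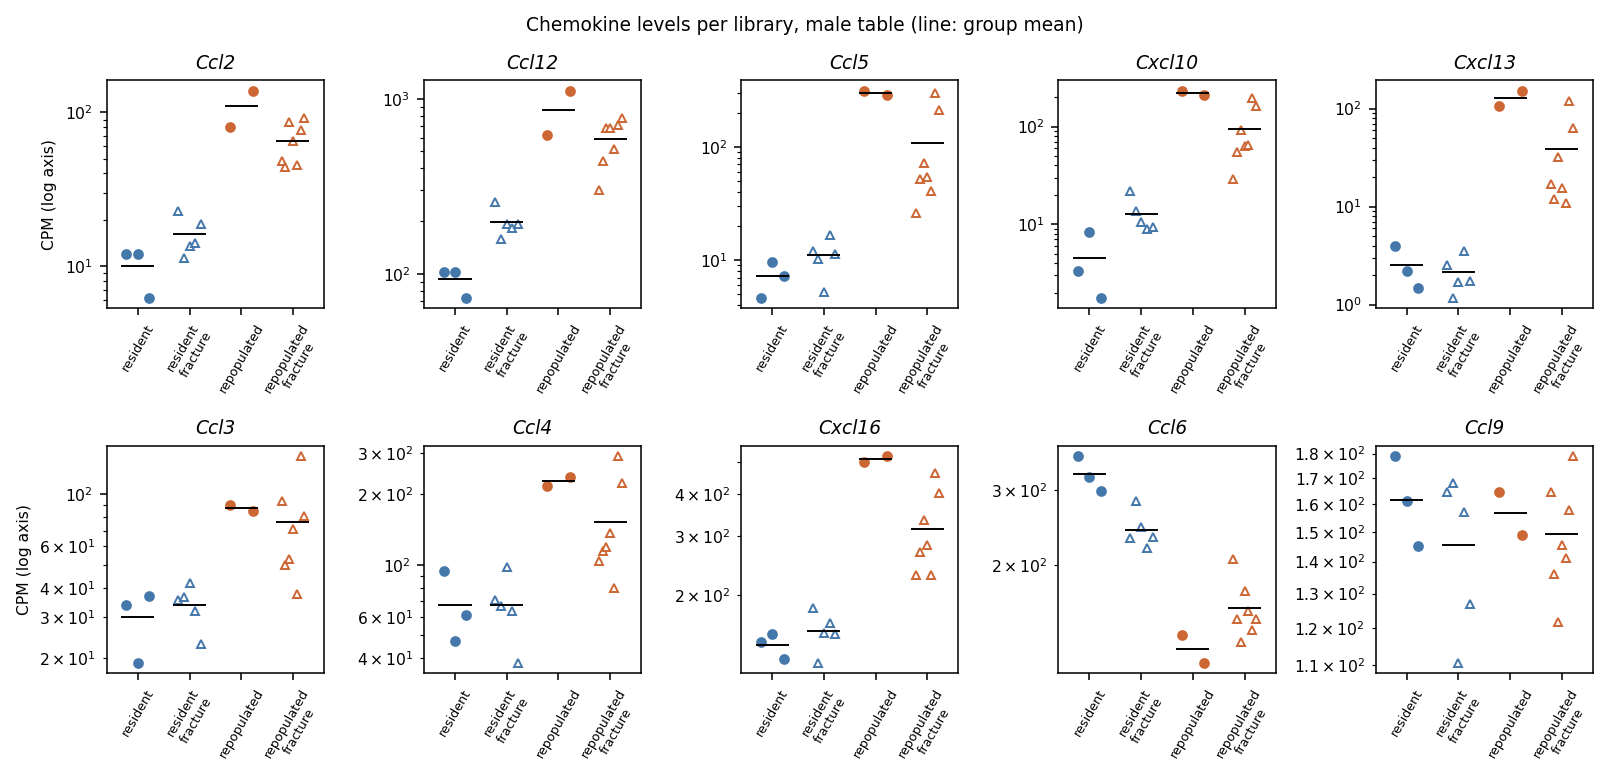
Normalised level (CPM, log axis) of each chemokine in every male library, by group, with the group mean as a line (circles without fracture, triangles with fracture, resident in blue, repopulated in orange). Cxcl10 lies at 1.78 to 21.7 CPM in the resident libraries and at 29.2 CPM or more in the repopulated ones, whereas the Ccl9 groups overlap.

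Ccl3 and Ccl4 are neighbouring genes whose products draw monocytes and T cells. Male Ccl3 was at 33.8, 19.1 and 37.0 CPM in resident libraries and 90.3 and 84.8 CPM in repopulated ones without fracture. With fracture it was at 35.4, 36.5, 41.9, 31.8 and 23.0 CPM in resident libraries, and from 37.8 through a median of 71.3 to 146 CPM in repopulated ones, where the lowest library fell within the resident range. Ccl3 rose 2.87-fold (log2 1.52 ± 0.41, edgeR adjusted p = 0.02775) and 2.25-fold (1.17 ± 0.27, adjusted p = 0.01697).

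Male Ccl4 was at 94.3, 47.5 and 61.1 CPM in resident and 217 and 236 CPM in repopulated libraries without fracture, a rise of 3.32-fold (log2 1.73 ± 0.48, edgeR adjusted p = 0.03991). With fracture the resident values were 70.97, 66.8, 97.7, 63.8 and 38.2 CPM and the repopulated ones 79.7 to 291 CPM with a median of 120 CPM. That difference of 1.17 ± 0.32 missed the threshold narrowly (adjusted p = 0.05063). The calls for this pair without fracture depended on single libraries. Ccl3 was no longer called without resident replicate 1, resident replicate 2, or either repopulated library (edgeR adjusted p = 0.06617 to 0.125). Ccl4 was no longer called without resident replicate 2, resident replicate 3, or either repopulated library (adjusted p = 0.1091 to 0.1901). The Ccl3 call with fracture was lost without resident replicate 5 (adjusted p = 0.05234) and over V numbers under 80 (0.78, adjusted p = 0.1841), and Ccl4 was called with fracture without resident replicate 3, repopulated replicate 1 or repopulated replicate 5 (adjusted p = 0.04636, 0.0381 and 0.02807). Over V numbers under 80 the Ccl4 difference with fracture was 0.52 (edgeR adjusted p = 0.3239), and without repopulated replicates 6 and 7 it was 0.71 (adjusted p = 0.07107).

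In the female table Ccl3 and Ccl4 were spread widely within groups. Without fracture, resident Ccl4 stood at 132, 21.2, 149 and 103 CPM and repopulated Ccl4 at 188, 157 and 179 CPM. Ccl3 was at 55.5, 18.2, 68.8 and 47.1 CPM against 80.1, 69.1 and 70.1 CPM. Repopulated libraries were above resident ones for both genes, by 0.78 ± 0.62 and 0.62 ± 0.50 on the log2 scale, and neither was called (edgeR adjusted p = 0.6333 and 0.6357). With fracture the groups overlapped for both.

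Cxcl16 differs in kind from the other members, since it is made as a membrane protein whose stalk can be cleaved to release the chemokine, and it binds Cxcr6. In males it was at 145, 153 and 129 CPM in resident and 501 and 520 CPM in repopulated libraries without fracture. With fracture it was at 183, 125, 154, 165 and 153 CPM in resident libraries and 230 to 463 CPM, median 283 CPM, in repopulated ones. The groups were apart both times, and Cxcl16 rose 3.6-fold (log2 1.85 ± 0.23, edgeR adjusted p = 5.373e-05) and 2.02-fold (1.02 ± 0.15, adjusted p = 0.0006032).

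Cxcl16 came nearest to a call among the members that were higher in females. Resident libraries without fracture held 313, 158, 363 and 175 CPM and repopulated ones 528, 421 and 432 CPM. With fracture the resident values were 169, 153, 201 and 188 CPM and the repopulated ones 323, 385, 276 and 255 CPM. The groups did not overlap in either setting. The log2 differences of 0.87 ± 0.25 and 0.80 ± 0.24 had edgeR adjusted p = 0.1014 and 0.1069. DESeq2 called both (adjusted p = 0.008453 and 0.009006), and edgeR called the first without resident replicate 3 (1.09, adjusted p = 0.02022).

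Ccl6 and Ccl9, which both signal through Ccr1, are neighbours in the genome. Ccl6 was the only member called lower in repopulated microglia, and the only one called in all 4 comparisons. In females it stood at 214, 270, 207 and 252 CPM in resident and 150, 149 and 146 CPM in repopulated libraries without fracture. With fracture it stood at 231, 212, 236 and 252 CPM against 143, 163, 173 and 160 CPM. Each repopulated library was below each resident one. Ccl6 fell by 0.67 ± 0.10 (1.59-fold, edgeR adjusted p = 0.007112) and by 0.54 ± 0.09 (1.46-fold, adjusted p = 0.00876) on the log2 scale, and both calls held in each of the 13 and 14 alternatives run.

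Male Ccl6 was at 362, 323 and 300 CPM in resident libraries without fracture and at 136 and 117 CPM in repopulated ones. With fracture the resident libraries held 232, 283, 245, 219 and 232 CPM and the repopulated ones 131 to 206 CPM with a median of 148 CPM. The groups did not overlap. Ccl6 fell by 1.38 ± 0.16 (2.59-fold, edgeR adjusted p = 2.048e-05) and by 0.62 ± 0.10 (1.54-fold, adjusted p = 0.0006032). Over V numbers under 80 the difference with fracture had the same size, -0.65, but was not called (adjusted p = 0.06545).

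Ccl9 did not move with it. In males it was at 179, 161 and 145 CPM in resident and 165 and 149 CPM in repopulated libraries without fracture, with a log2 difference of -0.04 ± 0.17 (edgeR adjusted p = 0.9455). In females it was at 199, 154, 214 and 191 CPM against 149, 190 and 146 CPM, a difference of -0.23 ± 0.12 (adjusted p = 0.4063). With fracture the differences were 0.04 ± 0.11 in males and -0.02 ± 0.11 in females, and the groups overlapped in all 4 comparisons. Its highest library was under 2 times its lowest in either table.

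**Figure D3:**
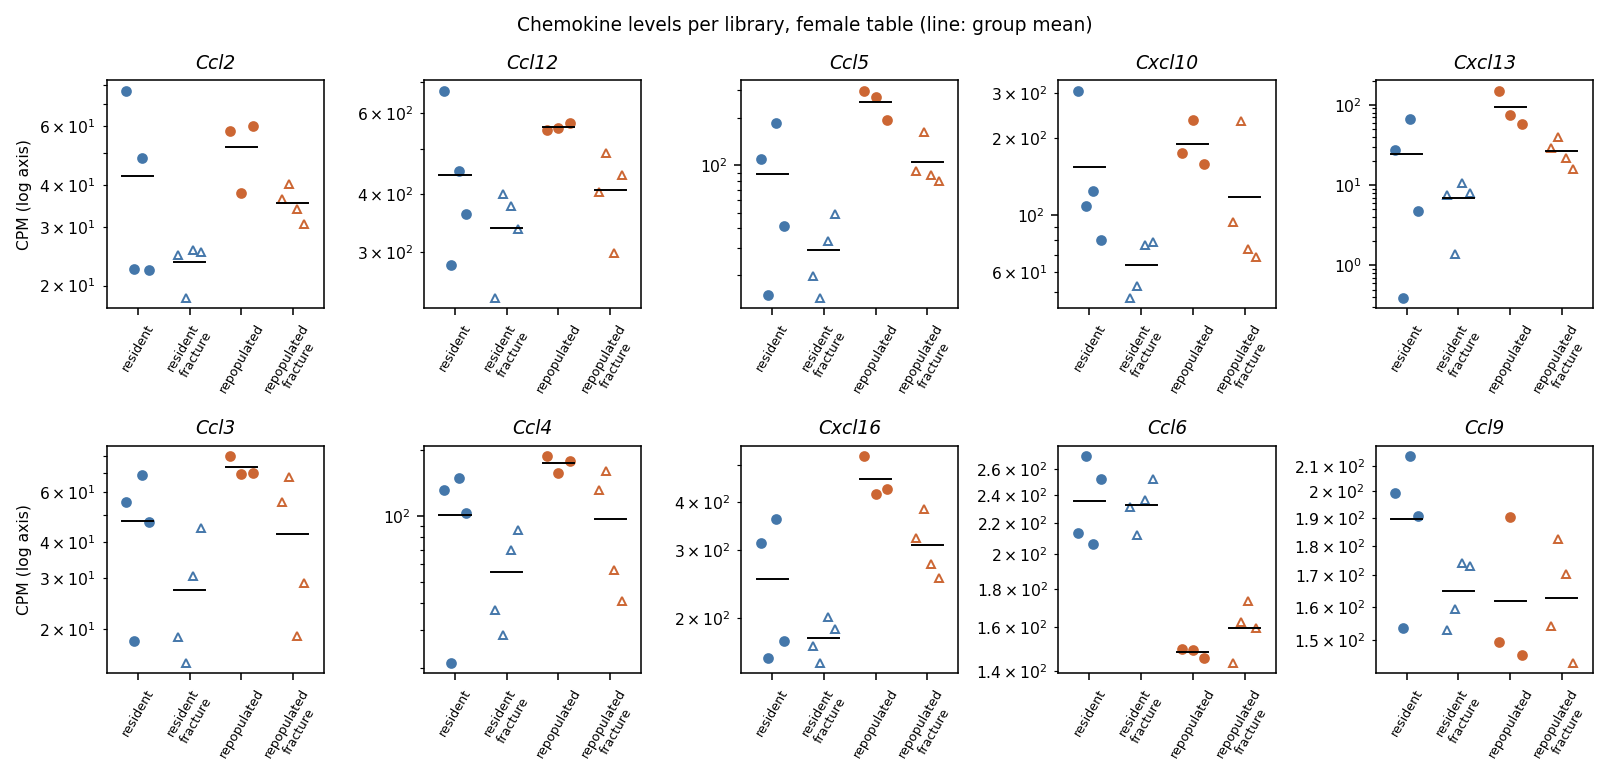
Normalised level (CPM, log axis) of each chemokine in every female library, by group, with the group mean as a line (circles without fracture, triangles with fracture, resident in blue, repopulated in orange). Resident libraries without fracture are the most spread for Cxcl13, from 0.398 to 66.1 CPM, while Ccl6 is lower in every repopulated library than in every resident one.

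Groups that did not overlap were common in small groups. Without fracture 4 members lay wholly above and 1 wholly below in repopulated female libraries, where 13.3% of all genes had groups apart, and with fracture also 4 and 1, where 11.9% did. In males 8 and 1 members were apart without fracture, against 35.4% of all genes with 2 repopulated libraries, and 6 and 1 with fracture, against 3.58%.

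Per transcript length, in TPM over the listed transcripts (counts divided by length, then scaled to the library), Ccl12 had the highest level in all 4 female groups and in 3 of the 4 male ones. It stood at 1685 ± 625 TPM (SD, n = 4) in female resident and 1966 ± 59.3 TPM (n = 3) in female repopulated libraries without fracture. In male resident libraries without fracture Ccl6 came first at 540 ± 20.2 TPM (n = 3), followed by Ccl12 at 321 ± 49.6, Ccl4 at 188 ± 49.8, Ccl9 at 144 ± 9.85, Cxcl16 at 117 ± 13.2 and Ccl3 at 72.9 ± 23.8 TPM. The lowest 4 there were Ccl5 at 25.6 ± 10.3, Ccl2 at 22.8 ± 6.84, Cxcl10 at 7.51 ± 5.86 and Cxcl13 at 3.99 ± 1.63 TPM. Ccl4 and Ccl9, Ccl5 and Ccl2, and Cxcl10 and Cxcl13 differed by less than their spread. In the 2 male repopulated libraries the order was Ccl12 at 2815 ± 951, Ccl5 at 999.6 ± 138, Ccl4 at 608 ± 7.44, Cxcl16 at 412 ± 0.869, Cxcl10 at 341 ± 51.6, Ccl2 at 235 ± 73.6, Ccl3 at 203 ± 23.5, Cxcl13 at 196.5 ± 37.1, Ccl6 at 188 ± 28.2 and Ccl9 at 122 ± 16.9 TPM. Ccl6 thus went from the first place to the ninth, and Ccl5 from the seventh to the second. Ccl2, Ccl3, Cxcl13 and Ccl6 were not separated beyond their spread there.

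**Figure D4:**
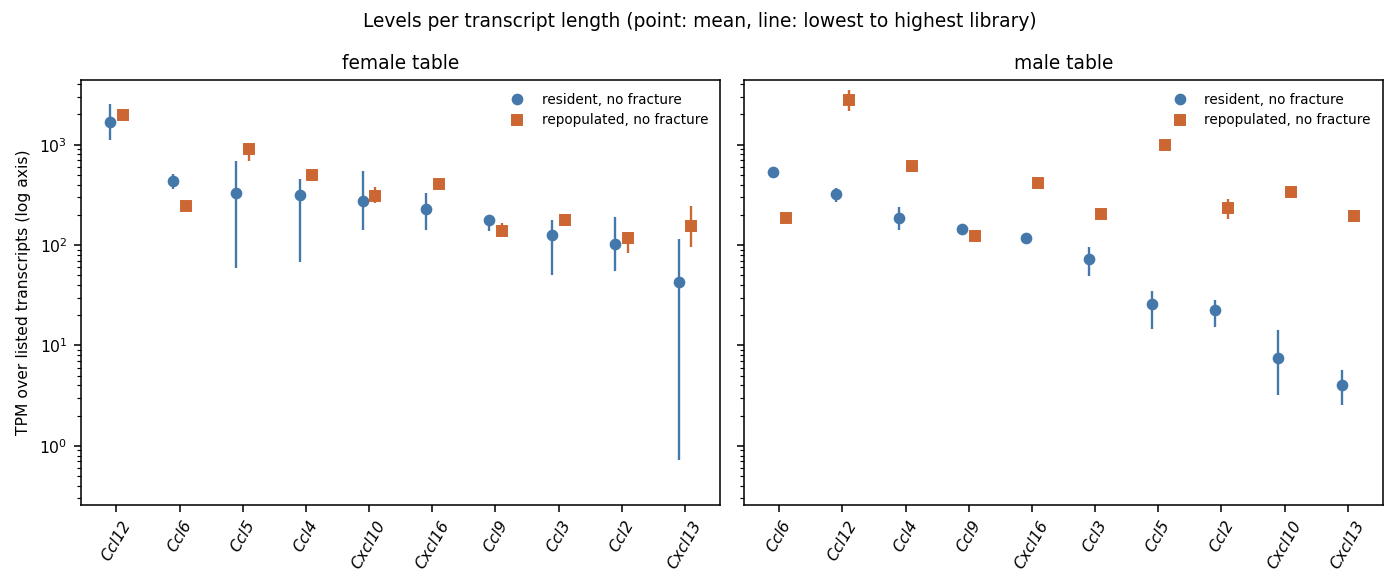
Level per transcript length (TPM over listed transcripts, log axis) of each chemokine in resident (circles) and repopulated (squares) microglia without fracture, in the female (left) and male (right) tables, ordered by the resident mean of each table. Points are means and lines run from the lowest to the highest library; in the male table the resident means run from 540 TPM for Ccl6 to 3.99 TPM for Cxcl13, and the repopulated ones from 2815 TPM for Ccl12 to 122 TPM for Ccl9.

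No member was called between fracture and no fracture, in either state or table. In female resident microglia, where 47.9% of all genes were higher with fracture, all 10 members were lower, with a median log2 difference of -0.83. None passed the adjusted threshold, and 3 members had an unadjusted p under 0.05 (edgeR): Ccl2 (-0.86 ± 0.33), Ccl5 (-1.60 ± 0.64) and Cxcl10 (-1.27 ± 0.47), each with adjusted p = 0.94. Of all genes 0.0% were called there, 659 had an unadjusted p under 0.05, and DESeq2 called 4 genes, no member among them. Cxcl10 was the only member whose groups were apart, at 47.7, 52.7, 76.7 and 78.8 CPM with fracture and 79.8 to 307 CPM without, where 3.09% of all genes had groups apart. For Ccl2, Ccl5, Ccl12 and Cxcl16, replicates 2 and 4 without fracture lay within the range of the fracture libraries. For each other member at least 1 of these replicates lay outside it. In female repopulated microglia 8 of 10 members were lower with fracture, with a median of -0.63 and 0.0% of genes called. Higher values were seen for 48.9% of all genes. There 5 members lay wholly below (Ccl3, Ccl5, Ccl12, Cxcl13 and Cxcl16), where 13% of all genes had groups apart, and Cxcl16 was the 1 member with an unadjusted p under 0.05 (-0.57 ± 0.25, edgeR adjusted p = 0.456). There 1410 genes had such a p. DESeq2 called 90 genes in that comparison and no member.

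In male resident microglia the Ccr2 ligands and Cxcl10 had higher values with fracture: Ccl12 at 158 to 256 CPM against 73.02 to 102.8 CPM (log2 1.09 ± 0.29), Cxcl10 at 8.9 to 21.7 CPM against 1.78 to 8.4 CPM (1.77 ± 0.68) and Ccl2 by 0.70 ± 0.31. Ccl6 was lower with fracture, at 219 to 283 CPM against 300 to 362 CPM (-0.44 ± 0.12). These 4 had an unadjusted p under 0.05, as did 511 of all genes, and none passed the adjusted threshold (edgeR adjusted p = 0.9802 to 0.9997). Of all genes 0.00833% were called, and 2 members were wholly above and 1 below, where 4.53% of all genes had groups apart. In male repopulated microglia 9 of the 10 members had lower values with fracture, with a median of -0.63, and Ccl6 was higher by 0.32 ± 0.14. Higher values were seen for 52% of all genes. The smallest p was that of Cxcl16, at 501 and 520 CPM without fracture and 230 to 463 CPM with it (-0.69 ± 0.20, edgeR adjusted p = 0.3312). Again 0.00833% of genes were called, 6 members and 995 genes had an unadjusted p under 0.05, and 2 members, Cxcl10 and Cxcl16, lay wholly below, where 7.08% of all genes had groups apart. DESeq2 called Cxcl16 (adjusted p = 0.0238) and gave no adjusted p for 5 members (Ccl2, Ccl3, Ccl5, Cxcl10 and Cxcl13). EdgeR called it without repopulated fracture replicate 6 (-0.81, adjusted p = 0.03932). Over V numbers under 80 edgeR called Ccl5 (-2.60, adjusted p = 0.01379), Cxcl13 (-2.68, adjusted p = 0.01429) and Cxcl16 (-0.89, adjusted p = 0.02954). In that range 40 genes were called, and it also leaves out replicates 6 and 7. Without only replicates 6 and 7 edgeR called Ccl5 (-2.61), Cxcl10 (-1.86), Cxcl13 (-2.88) and Cxcl16 (-0.92), with adjusted p = 0.00028 to 0.03343. These replicates were picked by their high levels, and their absence from both fits in itself lowers the fracture mean. The calls of both fits are therefore a description and no test. Replicates 6 and 7 of the fracture group held 212 and 296 CPM of Ccl5, against 286 and 314 CPM in the libraries without fracture.

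**Figure D5:**
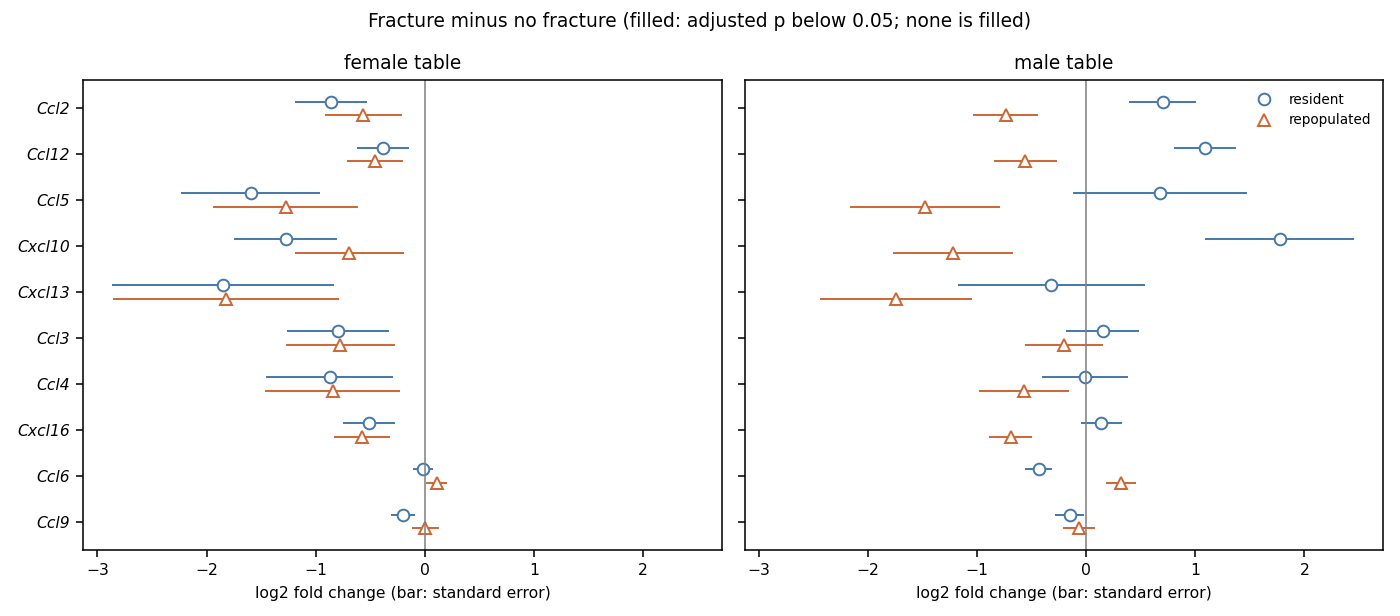
Log2 fold change of each chemokine between fracture and no fracture, with its standard error, in the female (left) and male (right) tables, for resident (circles) and repopulated (triangles) microglia. No symbol is filled because none passed the adjusted threshold; all 10 female resident values lie below 0, and male resident Cxcl10 and Ccl12 lie above 0 at 1.77 and 1.09.

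The interaction asks whether repopulated and resident microglia differ by another amount with fracture than without. In males it was positive for 51.7% of all genes. It was negative for 8 of 10 members, with a median of -1.13, among them Cxcl10 (-3.00 ± 0.88), Ccl12 (-1.65 ± 0.40) and Ccl2 (-1.44 ± 0.43), and it was 0.75 ± 0.18 for Ccl6. None of these was called by edgeR (adjusted p = 0.3382 to 0.4181), where 0.00833% of genes were called and 5 members and 886 genes had an unadjusted p under 0.05. DESeq2 called 3 members, Ccl6 (0.74), Ccl12 (-1.66) and Cxcl16 (-0.84), but gave no adjusted p for 6 others (Ccl2, Ccl3, Ccl4, Ccl5, Cxcl10 and Cxcl13). Over V numbers under 80, where 25 genes were called, edgeR called Ccl5 alone of the members (-3.00, adjusted p = 0.04236). Without only replicates 6 and 7 edgeR called Ccl5 (-3.29), Ccl6 (0.80), Cxcl10 (-3.63), Cxcl13 (-2.57) and Cxcl16 (-1.06). Replicates 6 and 7, picked by their high levels, are missing from both of these edgeR fits. Their calls are a description and no test. In females the median was 0.08, 0.0% of genes were called by edgeR, 1 gene by DESeq2, and no member had an unadjusted p under 0.05.

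The sexes were compared in 1 joint edgeR fit over 11617 genes, a test added after the data were seen. It used only transcripts listed in both tables, with all libraries normalised together. Without fracture the female repopulation difference was smaller than the male one for Cxcl10 (-5.53 ± 0.94, adjusted p = 0.009494), Ccl2 (-3.20 ± 0.56, adjusted p = 0.009494) and Ccl12 (-2.87 ± 0.44, adjusted p = 0.009016), where 0.413% of genes were called. Cxcl10 and Ccl12 stayed called in all 14 alternatives, and Ccl2 in 13, with adjusted p = 0.06539 without male repopulated replicate 2. Without male resident replicate 2 the value for Cxcl10 was -6.12. Ccl5 (-3.89 ± 1.14, adjusted p = 0.1404) and Ccl6 (0.71 ± 0.19, adjusted p = 0.09618) were not called. With fracture no gene was called (0.0%), and the differences for the same genes were -1.97 ± 0.68, -1.53 ± 0.43 and -1.28 ± 0.34. Resident levels lay far apart between the sexes in the separate fits of each table: Cxcl10 without fracture was at 79.8 to 307 CPM in females and 1.78 to 8.4 CPM in males. The libraries of the 2 sexes were made with different kits.

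Close relatives or neighbours in the genome (3 pairs), and Ccl5 with Cxcl10, both known interferon targets, were compared across libraries after the group means were removed, in 8 tests, 4 pairs in each table. Ccl3 and Ccl4 varied together in both tables: Pearson r was 0.94 and Spearman rho 0.968 over 15 female libraries (exact permutation, adjusted p = 0.004 and 0.00087), and 0.805 and 0.654 over 17 male ones (permutation, adjusted p = 0.004 and 0.032). Without the 2 farthest libraries r was 0.949 and 0.621. Ccl2 and Ccl12 varied together in males (r = 0.844, rho = 0.877, permutation adjusted p = 0.0014 and 0.00087, r = 0.831 without the 2 farthest). They did not pass the test in females (r = 0.629, rho = 0.539, exact permutation adjusted p = 0.13 and 0.14, r = 0.377 without the 2 farthest). For Ccl5 and Cxcl10, r was 0.747 in males (permutation adjusted p = 0.0088) with a rho of 0.532 (adjusted p = 0.096). In females r was 0.559 (exact permutation adjusted p = 0.13) with a rho of 0.771 (adjusted p = 0.0073). When the 2 farthest libraries were left out, r for this pair was 0.558 in males and 0.837 in females. For Ccl6 and Ccl9 neither table passed the test (r = -0.245 and 0.385, exact and permutation adjusted p = 0.54 and 0.18, r = 0.266 and 0.192 without the 2 farthest). Read estimates can be divided between related genes, which bears on the 3 pairs of close relatives or neighbours.

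Genes of like pattern were found by the mean absolute difference in log2 CPM, after each gene was centred, from each called member to 9217 other genes over 15 female or 9032 over 17 male libraries. For Ccl6 the nearest gene was Idh2, a mitochondrial isocitrate dehydrogenase, in both tables (0.0828 and 0.136). Klk8, a secreted protease, and Ighm, the immunoglobulin mu chain, came next in females, and Mlph and Slc40a1, the iron exporter ferroportin, in males. Nearest to male Cxcl10 were Cd69, Ccl5 and H2-Q7, to Ccl5 Irf7, Oasl1 and Ifi211, to Cxcl13 Ccl5, Oas3 and Ifi211, and to Ccl12 Ifi204, Ccl2 and Oas1a. Several of these, such as Irf7, Oasl1 and Oas3, are textbook interferon-induced genes. Tlr2 and Bst2 were among the 3 genes nearest to male Cxcl16. Male Ccl2 was nearest to Ccl12, Slc2a6 and Ifi204, Ccl3 to Ccl4, Tent4a and B2m, and Ccl4 to Ccl3, Xaf1 and Csf1. The same libraries underlie all of these distances.

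Other genes of the chemokine pathway were counted from lists. Of 28 further chemokines 10 were listed in females and none was called. The median log2 difference of the list was 0.29 and 0.69 in females, and 1.07 and 0.65 in males, without and with fracture. In males 8 were listed and 2 were called higher without fracture: Ccl7, another Ccr2 ligand, at 0.598 to 1.54 CPM in resident and 9.22 to 12.4 CPM in repopulated libraries (log2 3.41 ± 0.74, edgeR adjusted p = 0.005241), and Cxcl9, a Cxcr3 ligand like Cxcl10, at 0.079 to 2.52 and 19.1 to 24.9 CPM (4.75 ± 1.22, adjusted p = 0.02266). With fracture 1 was called, Cxcl9 (3.396 ± 0.80, adjusted p = 0.01883). Among these, Ccl8, Cxcl1, Cxcl2 and Cxcl12 were not listed in the female table.

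Of 23 chemokine receptors, 10 were listed in females and 5 in males, with list medians of -0.28 and 0.76 without fracture. Ccrl2, a receptor that binds ligand without classical signalling, was called higher in male repopulated microglia in both settings (1.23 ± 0.26 and 0.90 ± 0.17, edgeR adjusted p = 0.004169 and 0.003105). Cx3cr1, the fractalkine receptor and the locus that drives the Cre here, was called lower in males without fracture (-0.52 ± 0.13) and in females with fracture (-0.34 ± 0.08). Ccr2, Cxcr5 and most lymphocyte receptors were not listed.

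Of 34 genes of receptor signalling, 31 were listed in each table, with list medians of -0.09 in females and -0.21 in males without fracture. None was called higher and 6 were called lower in males without fracture, led by the G protein subunit Gna15 (-0.54 ± 0.12), the G protein regulator Rgs19 (-0.54 ± 0.12), Elmo1 (-0.44 ± 0.10) and Wasf2 (-0.50 ± 0.13). With fracture only Wasf2 was called (-0.30 ± 0.08). In females Grk3, a kinase that turns receptors off, was called lower without and with fracture (-0.84 ± 0.15 and -0.55 ± 0.13), and the phospholipase Plcb2 higher with fracture (0.40 ± 0.09). Of 12 genes that cut or present chemokines, 10 were listed in each table, and 5 were called, all higher in males without fracture: the proteoglycan Sdc3 (2.40 ± 0.45), the proteases Mmp2 (1.25 ± 0.24), Mmp14 (0.77 ± 0.15) and, named only because it completes the count, Adam17 (0.48 ± 0.12), and Rhbdf2 (1.16 ± 0.27), an inactive rhomboid protein that assists Adam17. The list medians there were 0.62 in males and -0.07 in females.

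All 22 transcriptional and feedback regulators were listed in both tables, with list medians of 0.22 in females and 0.36 in males without fracture. In males without fracture 8 were called higher and 3 lower. Among the higher were the NF-kappaB subunit Relb (1.04 ± 0.17) and the interferon factors Irf7 (4.32 ± 0.71) and Stat2 (2.18 ± 0.42). The 3 lower, named to complete the count, were the NF-kappaB subunit Rela (-0.47 ± 0.11), Zfp36l2 (-0.37 ± 0.09) and Irf5 (-0.31 ± 0.09). With fracture 6 were higher and 1 lower, the smallest adjusted p being those of Nfkbiz (1.10 ± 0.21), the RNA-decay factor Zfp36l2 (-0.27 ± 0.06), Irf7 (2.35 ± 0.46) and Stat2 (1.305 ± 0.28). In females Nfkb2 and the NF-kappaB inhibitor Nfkbia were called higher without fracture (0.75 ± 0.14 and 0.60 ± 0.14), and Nfkb2 with fracture (0.52 ± 0.13).

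Markers of other cells moved with repopulation too. Of 16 markers of macrophages of circulating origin, 10 were listed in females, where 5 were called higher and none lower in each setting, led without fracture by Pilra (1.80), Apobec3 (0.51) and Lyz2 (1.21). Their summed level was 1956 to 2229 CPM in resident and 2670 to 3839 CPM in repopulated libraries without fracture, and 2073 to 2226 and 3138 to 3780 CPM with fracture. In males 12 were listed, 3 were called higher without and 2 with fracture, and the sums were 1499 to 1787 against 1783 to 3101 CPM and 1642 to 2147 against 1807 to 3201 CPM. Ccr2 was among those not listed, and Clec12a and Ms4a7 were at 0 in some libraries of both tables. Male repopulated fracture replicates 6 and 7, which were high in Ccl5, Cxcl10 and Cxcl13, had sums of 1852 and 1893 CPM, near the lower end of their group. Their monocyte marker sums, 70.2 and 74.4 CPM, were the highest of that group, where the other 5 libraries held 21.6 to 52.4 CPM. Their microglial marker sums, 55370 and 52820 CPM, were the lowest. The highest monocyte marker sum of all male libraries, 138 CPM, was in resident fracture replicate 4, where Ccl5 stood at 16.6 CPM. The part of such cells in the chemokine levels was not tested.

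T and natural killer cells are known to make Ccl5. Of their 14 markers only Klrd1 was listed in each table. It was at 0.388 to 3.75 CPM in female and 0.855 to 7.22 CPM in male resident libraries, and at 0 to 1.42 and 0 to 1.47 CPM in repopulated ones. Of 7 B cell markers 3 were listed (in females 3 lower without and 2 with fracture, in males 1 and 2, Ighm in each), and they summed to 489 to 625 CPM in female and 429 to 543 CPM in male resident libraries, and to 343 to 461 and 312 to 451 CPM in repopulated ones. Of 9 monocyte markers 6 were listed in females, at 27.9 to 155 CPM in resident and 45.5 to 107 CPM in repopulated libraries, and 5 in males. Male sums without fracture were 12.1 to 21 CPM in resident and 62.4 to 77.9 CPM in repopulated libraries, and with fracture 11.6 to 138 and 21.6 to 74.4 CPM. Of these markers Itgal was called higher in females (2.47) and Ly6a in males (1.93), both without fracture. Of 9 neutrophil markers only Csf3r was listed, called higher in 3 of the 4 comparisons, with a log2 difference of 0.50 in males without fracture. Border macrophage markers had 4 of 9 listed in females and 6 in males, with Siglec1 called higher in males (3.57 without and 3.35 with fracture). Of 12 microglial markers, 5 were called lower in males without fracture and 3 with it, led by P2ry12 (-1.12 and -0.49). In females 3 were lower and 1 higher without fracture, and 1 each with it. Endothelial Pecam1 was lower in 3 of the 4 comparisons (-4.08 in males without fracture), while Kdr, also endothelial, was higher there (2.58). The astrocyte marker Slc1a3 was lower in males with fracture (-0.43), and no marker of oligodendrocytes, neurons or red cells was called. The part of these cells was not tested.

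Genes of the immediate-early and dissociation response, which can be raised by tissue handling, summed to 1098 to 1221 CPM in female resident and 884 to 1103 CPM in female repopulated libraries, with none of 20 listed genes called. In males the sums were 1761 to 2064 CPM in resident and 1641 to 1858 CPM in repopulated libraries, except for repopulated fracture replicate 1 at 4907 CPM. That library was the lowest of its group for Ccl5, Ccl12 and Cxcl10. Of 21 listed genes, Socs3 was called higher and Jund lower in males without fracture. The part of handling in the chemokine levels was not tested.

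Most members were read from a single dominant protein-coding transcript, and Ccl3, Ccl4 and Cxcl13 had only 1 listed. In Ccl6 another transcript that keeps an intron took 33.1% ± 2.0 (SD, n = 4) of the estimated counts in female resident and 30.2% ± 4.5 (n = 3) in repopulated libraries without fracture, and 31.9% ± 2.8 (n = 3) and 23.9% ± 4.1 (n = 2) in males. With fracture the shares were 33.0% ± 1.0 and 36.6% ± 2.8 in females (n = 4 each) and 32.1% ± 3.9 (n = 5) and 28.7% ± 2.0 (n = 7) in males. A Cxcl16 transcript annotated as a target of nonsense-mediated decay took 17.1% ± 2.8 and 22.0% ± 2.4 in females and 16.1% ± 1.4 and 19.9% ± 4.6 in males without fracture. These shares were not tested between groups.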

How the data were processed

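The deposited tables hold estimated counts per transcript, 1 table per sex, which the authors made, per the submitters' processing notes, on GRCm38 with RSEM 1.3.1 and the aligner STAR 2.7.6a. Those notes also list, for trimming, cutadapt 3.4 and Trim Galore 0.6.7, for quality reports MultiQC 1.11 and FastQC 0.11.9, and for statistics R 4.1.3 with DESeq2 1.34.0. The annotation release is not given in the sources used here. RSEM can divide reads between related genes. A score column deposited by the authors was checked to be each transcript's mean absolute deviation over libraries, and was not used. Every listed transcript has at least 10 counts in at least 8 female or 9 male libraries, and a gene that is not listed may still be present at a low level.

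Transcripts were summed by gene identifier and scaled by TMM, and the sums were rounded for DESeq2 only. Each table was tested in 1 model over its 4 groups with the edgeR 4.0.16 quasi-likelihood test (R 4.3.3), after edgeR's filter on low counts. Benjamini-Hochberg adjustment was over all genes, with a threshold of 0.05. All 10 members passed the filter. The error after "±" of a log2 difference is its standard error, its size over the square root of the F statistic. DESeq2 1.42.0, other scalings and filters, a replicate block, V number ranges and left-out libraries were alternatives. The V number range alone, the joint fit of both sexes and the fit without replicates 6 and 7 were chosen after seeing the data. TPM used GENCODE M21 transcript lengths, matched for 34309 of 34865 female and 27891 of 28345 male transcripts. Permutation tests used scipy 1.17.1, with pandas 2.3.3 and numpy 2.4.6 on Python 3.11.15. Simulated data had changes only in the repopulated fracture group, in genes over 5 CPM, and were tested against resident fracture libraries. Over 13368 female genes, 70% of genes changed by 1 on the log2 scale and 94% of those changed by 2 were recovered. Over 11998 male genes it was 79% and 98%. These shares do not cover the comparisons without fracture, which have fewer libraries, and are not the rate for any single member. No libraries of a group were alike within sampling noise.

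Named were the 10 members, the called genes of each list with the smallest adjusted p, and the 3 genes nearest in pattern to each called member. Some genes that this rule selects are not reported here. The members and lists were chosen with earlier results of these data known.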

Additional observations from a re-analysis of the deposited data

Results flagged for a closer look

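In 3 of the 50 member-by-group sets of 4 to 7 libraries 1 library lay far from the rest, where chance alone marks about 1 in 20 sets. Ccl2 was lowest in female resident fracture replicate 2, at 18.41 CPM. Ccl5, at 163 CPM, and Cxcl10, at 233.9 CPM, were highest in the same library, female repopulated fracture replicate 2.

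The repopulation difference without fracture was not the same in the 2 sexes for 3 members, by the joint edgeR fit. Female minus male, it was -3.20 for Ccl2, -2.865 for Ccl12 and -5.527 for Cxcl10 on the log2 scale. Sex and library kit cannot be told apart.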

How the results depend on the processing

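Of 19 called member differences, 308 of 321 values under alternatives were still called, none changed sign, and 13 differences were called under every alternative run. Of 1389 alternative values of the 81 uncalled ones, 32 were called and 65 uncalled values changed sign.

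DESeq2 called 2 members and 676 genes for repopulation in females without fracture (edgeR 1 and 338) and 2 and 694 with fracture (1 and 315). For fracture it called 4 genes in resident and 90 in repopulated females, 12 in resident males, and 58 with 1 member in repopulated males, where edgeR called 0, 0, 1 and 1. For the interaction it called 1 gene in females and 49 with 3 members in males (edgeR 0 and 1). It gave no adjusted p for 5 members in repopulated males and 6 in the male interaction.

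Same-numbered replicates did not vary together in every pair (r from -0.571 to 0.44 over the 8 comparisons), so the numbers were not taken to pair samples. The largest r were between female repopulated and resident libraries, 0.0796 to 0.44 over 3 pairs without fracture and -0.0906 to 0.259 over 4 with it. In each of these, 2 repopulated libraries were most alike to the resident one of their own number, so some pairing in females is not excluded. With the replicate number as a block, repopulation gave 143 and 184 genes in females without and with fracture and 293 in males with fracture. The block gave 2 genes for fracture in resident males, 56 genes and 3 members in repopulated males, and 57 genes and 2 members for the male interaction.

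With genes of at least 5 CPM only, fracture in repopulated males gave 0 genes and the male interaction 2. With the V number range as a factor these gave 2 and 0. Over V numbers under 80, an alternative chosen after seeing the data, repopulation in males with fracture gave 4 members and 80 genes, fracture in repopulated males 3 and 40, and the interaction 1 and 25. Without repopulated fracture replicates 6 and 7, also chosen afterwards, repopulation with fracture gave 374 genes, fracture gave 3 genes in resident males and 157 with 4 members in repopulated males, and the interaction gave 117 with 5 members. Replicates 6 and 7 were picked for their high levels of members and are missing from both alternatives, so the member counts of both are a description.

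With 1 library left out at a time, repopulation in females gave 51 (without repopulated replicate 1) to 612 genes (without resident replicate 3) and 1 to 2 members without fracture, and 106 (without resident replicate 1) to 233 genes (without repopulated replicate 3) with it. In males it gave 414 (without repopulated replicate 2) to 722 genes (without resident replicate 1) and 7 to 8 members without fracture, and 400 to 716 genes and 7 to 9 members with it. Fracture gave 0 to 1 genes in resident females, 1 to 2 in resident males and 1 to 29 with 0 to 1 members in repopulated males. The interaction gave 0 to 1 genes in females and 0 to 14 in males. The difference between the sexes without fracture gave 8 to 113 genes and 2 to 4 members, and with fracture 0 to 1 genes. The cause of these shifts was not tested, other than that each left-out library leaves fewer samples. With 2 repopulated males without fracture, leaving 1 out assumes that the other varies like the remaining groups.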
